A study of Mus musculus with 10 samples.

Results

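The 4 Hox clusters of the mouse were followed in nascent transcription and in the repressive histone mark H3K27me3. Members were all gene symbols of the form Hox, a cluster letter from a to d and a paralogue number, with the longest transcript kept per symbol, which gave 39 of the 24016 genes in the table (45 of its 33022 transcripts). The Hoxa cluster on chromosome 6 held 11 of them, Hoxb on chromosome 11 10, Hoxc on chromosome 15 9 and Hoxd on chromosome 2 9. The measurements came from organoids, small epithelial structures grown in gel, started from the duodenum of mice that the labels number 1 and 2. One medium, WENRC, combined 3 factors used in both media (EGF, Noggin and R-spondin) with Wnt3A and with CHIR-99021, an agonist of the Wnt pathway, and the labels call its cells intestinal stem cells. The other, ENRI, kept those 3 factors, left out the 2 Wnt activators and added IWP-2, which blocks Wnt secretion, and the labels call its cells enterocytes. GRO-seq, or global run-on sequencing, reads the RNA being made by polymerases already on the gene when nuclei are isolated. There were 2 such libraries per medium and 1 H3K27me3 ChIP-seq library per medium, among 10 samples in the series. With 2 GRO-seq libraries per group, p-values measure the spread between these libraries. The strain, sex and age of the animals are not given in the sources used here, and organoids carry epithelium without the surrounding mesenchyme of the gut.

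Hox genes encode homeodomain transcription factors that give cells their position along the head to tail axis. Within a cluster the genes lie in a fixed order, with low paralogue numbers used towards the head and high numbers towards the tail, and the gut keeps such a regional pattern in the adult. Polycomb repressive complex PRC2 writes H3K27me3 over Hox clusters in cells where they are silent, and the clusters are standard examples of broad Polycomb domains.

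The GRO-seq libraries carry a batch number in the header of the authors' table, with 1 library of each medium in each batch. Values for all 4 libraries are given in 1 order, WENRC then ENRI for the first batch, followed by the same media for the second. Reads over all transcripts were 25839484, 29128101, 9245915 and 15787828, so batch 2 was shallower. All 6 epithelial marker genes passed the filter on low values, and the summed level of the 4 stem cell markers was 12.9 and 18.7 RPKM in WENRC against 1.40 and 1.53 in ENRI, while that of the 5 enterocyte markers was 32.5 and 11.2 against 512 and 678 (batch 1 first, in RPKM, which scales reads to transcript length and library total). Markers of the labelled tissue and of both labelled cell types were thus detected. The 9 mesenchymal markers in the table summed to 1.01 to 1.62 RPKM per library. The largest part was Acta2, with 1.41, 0.838, 0.806 and 0.615 RPKM, the only 1 of them to pass the filter, while Twist1 had 0 reads in all 4. The 4 neural markers summed to between 0.375 and 0.652 RPKM and the 3 endothelial ones to at most 0.0647. The 3 immune markers summed to 13.1, 5.25, 16.5 and 5.51 RPKM, nearly all from Cd68, while Ptprc, the pan-leukocyte marker, had at most 0.0406.

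Transcription of the Hox genes was low, and it differed between clusters. With the filter of at least 0.5 RPKM in at least 2 libraries, 10 of the 39 genes were tested, and these were Hoxa9, Hoxa10, Hoxb3, Hoxb4, Hoxb5, Hoxb6, Hoxb7, Hoxb9, Hoxd3 and Hoxd4. No gene of the Hoxc cluster passed, and the highest level of any Hox gene was 1.84 RPKM, that of Hoxb5 in WENRC of batch 1. The Hoxb cluster was the only one of the 4 with genes above 0.5 RPKM in all libraries, and it had 6, 5, 7 and 3 such genes in the 4 libraries. The Hoxa cluster had 5, 3, 0 and 1, and the Hoxd cluster 2, 2, 0 and 0.

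**Figure D1:**
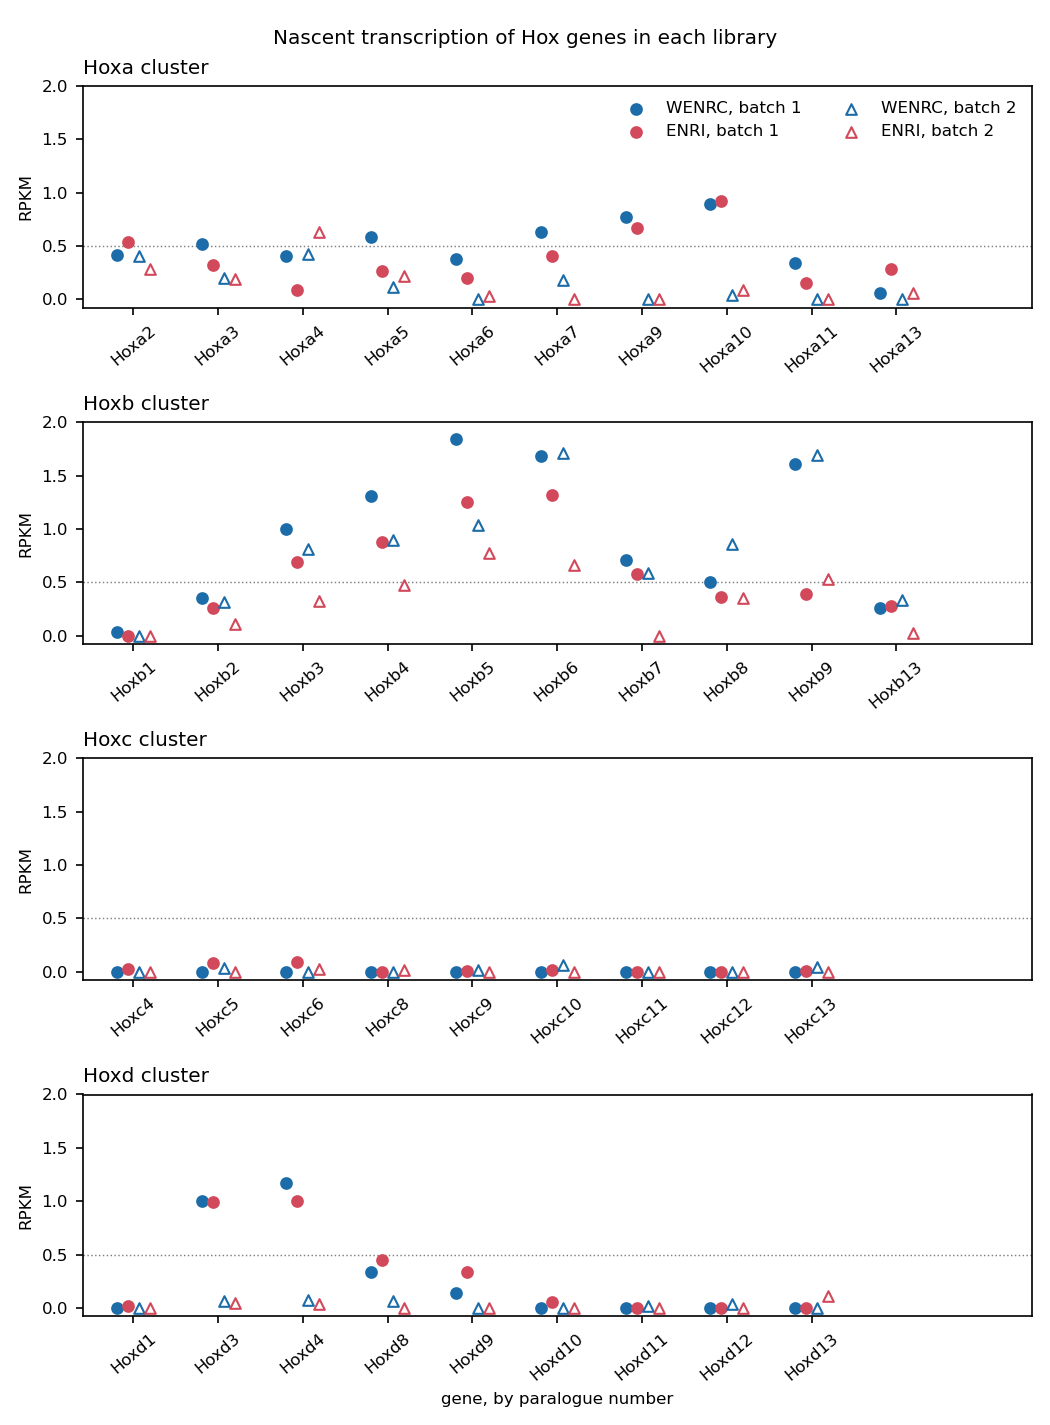
Each point is the level of 1 plotted Hox gene in 1 library (y axis, RPKM, linear), with genes ordered by paralogue number in 4 panels for the 4 clusters, filled circles for batch 1 and open triangles for batch 2, and blue for WENRC and red for ENRI. The dotted line marks 0.5 RPKM, Hoxb5 and Hoxb6 lie above it in all libraries, Hoxa9, Hoxa10, Hoxd3 and Hoxd4 lie above it in both libraries of batch 1 and below it in batch 2, and no Hoxc gene exceeds 0.0888 RPKM.

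The Hoxc cluster was near the detection limit. Its 9 genes together had 0, 20, 8 and 2 reads in the 4 libraries. Hoxc11 and Hoxc12 had 0 reads in all 4 libraries, and Hoxc6 and Hoxc5, the members with most reads in 1 library, had 6 and 8 in ENRI of batch 1. For a transcript of 3 kb, the 3 reads that a count of 0 still allows correspond to 0.0387, 0.0343, 0.108 and 0.0633 RPKM in the 4 libraries (counting error only), which is the upper limit of a level listed at 0.

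At the posterior ends, Hoxa13 had between 0 and 17 reads, Hoxb13 between 1 and 18, and Hoxd10, Hoxd11, Hoxd12 and Hoxd13 between 0 and 6 reads per library. At the anterior ends of 2 clusters, Hoxb1 had 2 reads in WENRC of batch 1 and 0 in the others, and Hoxd1 had 1 read in ENRI of batch 1 and 0 in the others. Reads of the Hoxb and Hoxd clusters therefore came mainly from the genes between their ends.

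Genes of the same paralogue number differed widely between clusters. In group 4, Hoxb4 had 1.31 and 0.898 RPKM in WENRC of batch 1 and batch 2, Hoxa4 had 0.403 and 0.429, Hoxd4 had 1.17 and 0.0753, and Hoxc4 had 0 reads in both. In group 9, Hoxb9 had 1.61 and 1.69 RPKM in the same libraries, Hoxa9 had 0.770 and 0, Hoxd9 had 0.143 and 0, and Hoxc9 had 0 and 0.0146. The Hoxb member was thus the highest of its group in both WENRC libraries in these 2 groups, which were picked after their values were seen and carry no test. This did not hold in ENRI, where Hoxd4 at 0.999 RPKM was above Hoxb4 at 0.876 and Hoxa9 at 0.667 above Hoxb9 at 0.391 in batch 1, and Hoxa4 at 0.628 was above Hoxb4 at 0.470 in batch 2.

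One question of the design is whether Hox transcription differed between stem cell and differentiation medium. The 6 tested Hoxb genes had lower mean values in ENRI, where 65.7% of all genes tested were lower. None of the 6 was past the threshold in limma, and Hoxb9 had the largest difference of the 10 Hox genes tested. Hoxb9, at chr11:96132644-96137907 (mm9, transcript NM_008270), had 1.61 and 1.69 RPKM in WENRC of batch 1 and batch 2 and 0.391 and 0.530 in ENRI, from 219, 82, 60 and 44 reads. Both ENRI libraries lay below both WENRC libraries. The means were 1.65 ± 0.0529 and 0.460 ± 0.0977 RPKM (SD, n = 2). The difference of −1.16 ± 0.13 (SE) in log2(RPKM + 0.5) had an adjusted p of 0.056 in limma, above the threshold of 0.05. Genes with other unadjusted p-values shared this adjusted p, such as the markers Apoa4, Krt20 and Olfm4. Within batch 1 the ratio of ENRI to WENRC was 0.243 (exact 95% interval on reads 0.180 to 0.325), and within batch 2 it was 0.314 (0.213 to 0.459).

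Hoxb9 passed the threshold in some other tests of the same reads. The adjusted p was 0.0494 in edgeR's quasi-likelihood test, 0.053 in edgeR with the replicate block and 0.00387 in DESeq2, and the authors' deposited table gave a log2 change of −1.62 at an FDR of 0.0314. With the batch as a replicate block the adjusted p was 0.0851 in limma. Hoxb9 was lower in ENRI in all 16 alternatives, with log2 differences from −1.65 to −0.86 and adjusted p from 0.00387 to 0.415. Its direction was thus stable over these settings, while the call was not.

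By limma, 0 of the 10 Hox genes passed an adjusted p of 0.05, beside 17 of 11602 genes tested (0.147%). Limma also called 0 of the 4 stem cell and 0 of the 5 enterocyte markers. Its 0 calls therefore do not show that the media were alike. At an unadjusted p under 0.05 in limma there was 1 of the 10 Hox genes, Hoxb9, against 4521 of the 11602 genes tested. The quasi-likelihood test of edgeR called 1 of the 10 Hox genes, beside 8.44% of all genes tested. DESeq2 called 1 of the 10, beside 23.6%, and in both cases it was Hoxb9. In the fit that the authors deposited, 1 of the 39 Hox genes was lower in ENRI at an FDR under 0.05 (3.06% of all genes) and 0 were higher (5.65% of all genes).

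The 5 other Hoxb genes tested were lower in ENRI by smaller amounts that did not pass. Hoxb6 had 1.68 and 1.71 RPKM in WENRC and 1.32 and 0.660 in ENRI, and its difference was −0.60 ± 0.25 (log2, SE, limma adjusted p = 0.152). Hoxb3, the longest transcript of the cluster, had 1.00 and 0.807 RPKM in WENRC and 0.692 and 0.329 in ENRI, a difference of −0.49 ± 0.22. For Hoxb4 the values were 1.31 and 0.898 in WENRC and 0.876 and 0.470 in ENRI, a difference of −0.46 ± 0.24. In each of these 3 genes both ENRI libraries lay below both WENRC libraries, by a small margin in Hoxb4. Hoxb7 had 0.704 and 0.584 RPKM in WENRC and 0.576 and 0 in ENRI, a difference of −0.64 ± 0.40 that rests on the 0 reads of ENRI in batch 2. Hoxb5 had 1.84 and 1.04 RPKM in WENRC and 1.25 and 0.777 in ENRI, a difference of −0.34 ± 0.28, and its groups overlapped.

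Of the 10 Hox genes tested, 5, all in the Hoxb cluster, had both ENRI libraries below both WENRC libraries, beside 49.7% of all genes tested, and 0 had both above, beside 23.0%. The share for the Hox genes is close to the background. All 6 tested Hoxb genes were lower in ENRI, beside 65.7% of all genes tested. They were also lower under each of the 16 alternatives, beside 50.2% to 66.6% of all genes, and these alternatives reuse the same libraries. The Hoxb medians ran from −0.84 to −0.22 around a value of −0.55, and the median of all genes tested was −0.21. That median of all genes moved to −0.02 with TMM scaling, −0.04 with quantile normalization and −0.06 with median centring, while the Hoxb median became −0.38, −0.27 and −0.40. Of the 4 tested genes outside Hoxb, 3 were lower and 1 higher in ENRI by at most 0.13, and each of the 4 had the opposite sign under at least 1 alternative. In bulk samples, fewer transcribing cells and less RNA per cell cannot be told apart, and the part of the lower stem cell markers and of Cd68 in the Hoxb values was not tested.

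**Figure D2:**
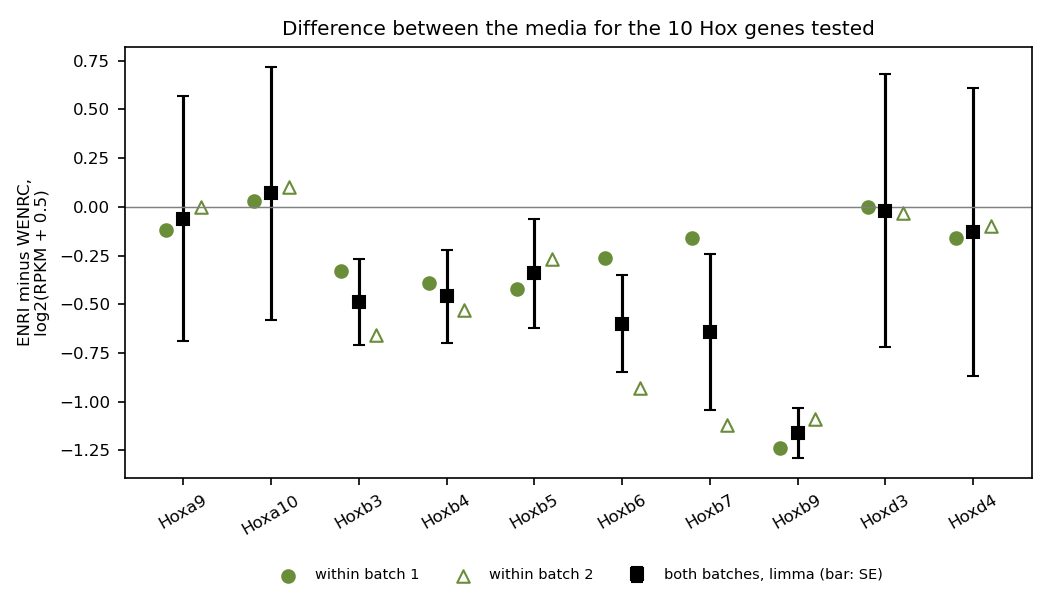
The y axis is the difference of ENRI minus WENRC in log2(RPKM + 0.5) for the 10 Hox genes tested; squares with bars are the limma estimate and its SE over both batches, filled circles the difference within batch 1 and open triangles that within batch 2. All 6 Hoxb genes lie below 0 in both batches, Hoxb9 lies at −1.24 and −1.09, and the wide bars of Hoxa9, Hoxa10, Hoxd3 and Hoxd4 go with within-batch differences between −0.16 and 0.10.

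In Hoxa9, Hoxa10, Hoxd3 and Hoxd4 the libraries differed between batches, while the media lay close together within a batch. Hoxd3, at chr2:74550050-74586328 (mm9, NM_010468), had 0.998 and 0.995 RPKM in the batch 1 libraries and 0.0626 and 0.0506 in those of batch 2, from 936, 1051, 21 and 29 reads. The ratio of batch 1 to batch 2 was 15.9 (exact 95% interval on reads 10.4 to 25.9) in WENRC and 19.6 (13.6 to 29.5) in ENRI. Both libraries of batch 1 were high and both of batch 2 low, with almost no difference between the media inside a batch.

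Hoxd4, which lies inside the Hoxd3 transcript, had 1.17 and 0.999 RPKM in batch 1 and 0.0753 and 0.0353 in batch 2, a ratio of 15.5 (6.55 to 48.3) in WENRC and 28.3 (10.9 to 105) in ENRI. The 29.1 kb of Hoxd3 outside Hoxd4 had 0.956, 0.993, 0.0595 and 0.0544 RPKM, so the reads of Hoxd3 did not come from Hoxd4 alone. Hoxa10, at chr6:52181196-52190853 (mm9, NM_001122950), had 0.894 and 0.921 RPKM in batch 1 and 0.0448 and 0.0853 in batch 2, a ratio of 19.9 (7.68 to 73.9) in WENRC and 10.8 (6.20 to 20.6) in ENRI. Its neighbour Hoxa9, at chr6:52173096-52177369 (NM_010456), had 0.770 and 0.667 RPKM from 85 and 83 reads in batch 1 and 0 reads in both libraries of batch 2. Against a floor of 3 reads per library, Hoxa9 was at least 10.1-fold higher in batch 1 in WENRC and at least 15.0-fold in ENRI. The exact 95% interval on reads, which also counts the error of the batch 1 reads, began at 8.07 and 11.9.

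Such a batch difference was rare among all genes. Batch 1 was at least 4-fold above batch 2 in both media, with the floor of 3 reads, in 13 of 11602 genes tested (0.112%), and batch 2 was as far above batch 1 in 6 (0.0517%). Of the 13, 4 were Hox genes, and 1 more, Hoxd3os1, is a noncoding transcript of the Hoxd cluster. These 4 Hox genes passed the filter on low values only through batch 1, so the count describes them and is no test. At 8-fold all 4 still met the rule.

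The other 8 genes higher in batch 1 were Ddx3y, Eif2s3y, Kdm5d and Uty on chromosome Y, the transcription factor gene Tfap2a, and the small nucleolar RNA genes Snord1b, Snord1c and Snord35b. Uty had 0.896, 0.896, 0.00218 and 0.000851 RPKM in the 4 libraries. The 6 genes higher in batch 2 included Xist, the RNA that coats the inactive X chromosome, with 0.0677, 0.0165, 12.9 and 5.88 RPKM, and its antisense partner Tsix. Libraries of 1 batch thus shared a sex chromosome pattern across the media, and the batches differed in it. Animal, sex chromosomes and batch differ together here and cannot be told apart as sources of the Hox difference. Depth differed as well, and the ratios above were scaled to library totals, with intervals that cover counting error. Any further part of depth was not tested. Summed mesenchymal markers were 1.62 and 1.01 RPKM in batch 1 and 1.23 and 1.21 in batch 2, and no gene of the 11 lists examined met the rule. Single markers in that sum went different ways. Acta2 had 1.41 and 0.838 RPKM in batch 1 and 0.806 and 0.615 in batch 2, while Foxf1 had 0.113 and 0.0820 against 0.201 and 0.336. A part of mesenchyme in the Hox difference was not tested.

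**Figure D3:**
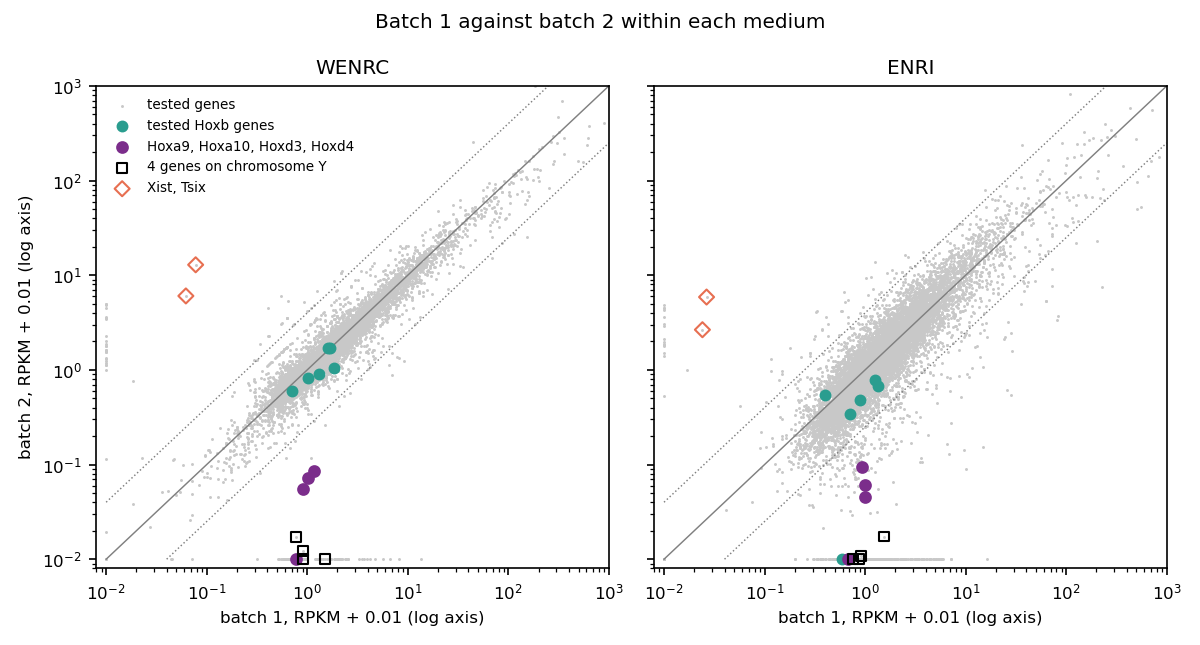
Each point is 1 gene tested, with its level in batch 1 on the x axis and in batch 2 on the y axis (RPKM + 0.01, log axes, so genes at 0 lie on the lower or left edge), for WENRC on the left and ENRI on the right; the solid line marks equal levels and the dotted lines a 4-fold difference. Hoxa9, Hoxa10, Hoxd3 and Hoxd4 (purple) lie with the 4 genes of chromosome Y far below the line in both media, Xist and Tsix lie far above it, and the Hoxb genes (green) stay near it except Hoxb7 in ENRI, which had 0 reads in batch 2.

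Other genes of Hoxa and Hoxd were partly higher in batch 1. Hoxa7 had 0.630, 0.407, 0.183 and 0 RPKM in the 4 libraries, and Hoxa11 had 33 and 17 reads in batch 1 and 0 in both libraries of batch 2. Hoxa3, whose transcript of 44.0 kb contains Hoxa4, Hoxa5 and Hoxa6, had 0.518 and 0.319 RPKM in batch 1 and 0.197 and 0.187 in batch 2. Hoxa4 went the other way in ENRI, with 0.0851 RPKM in batch 1 and 0.628 in batch 2, from 5 and 20 reads. Hoxa2 had 0.417, 0.540, 0.403 and 0.289 RPKM, with batch 1 above batch 2 by a ratio of 1.03 in WENRC and 1.87 in ENRI. In the Hoxd cluster, Hoxd8 had 29 and 43 reads in batch 1 and 2 and 0 in batch 2, and Hoxd9 had 9 and 24 against 0 and 0. Where Hox transcripts overlap, the same reads can count for more than 1 gene, and the strand setting of the counting is not stated.

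All 39 Hox promoters carried H3K27me3 in both media. A promoter, 2 kb either side of the transcription start, counted as marked when it overlapped a broad region by at least 1 bp, which held for 10.5% of all 24016 genes in WENRC and 8.76% in ENRI. The narrow regions also reached all 39 promoters in both media, and they covered the start itself in 39 genes in WENRC and 37 in ENRI, the exceptions being Hoxa4 and Hoxd13. Genes with a marked promoter mostly had low levels, with a median of 0.0320 RPKM in WENRC and 0.0341 in ENRI over all such genes, and 14.4% and 16.0% of them passed the filter on low values. Of the Hox genes, 25.6% passed and the median was 0.188 and 0.169 RPKM. Hox genes with measured transcription, such as Hoxb9 and Hoxb6, thus had a marked promoter in the same medium, in bulk material where the cells that transcribe and those that carry the mark are not resolved.

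The clusters were covered nearly end to end. In WENRC 1 broad region covered 100% of the Hoxa cluster (chr6:52096451-52227173, mm9), 1 covered the Hoxc cluster (chr15:102727334-102900485) and 1 the Hoxd cluster (chr2:74481273-74604445), and in ENRI each was again covered to 100% by 1 region. The Hoxb cluster was covered to 94.0% in WENRC and 81.9% in ENRI by 2 regions, one over Hoxb13 and one from beyond Hoxb9 to beyond Hoxb1 (chr11:96093323-96245370 in WENRC and chr11:96110077-96247876 in ENRI). The gap between the regions holds no Hox gene. Among all broad regions, those over Hoxc, Hoxb, Hoxa and Hoxd ranked 1, 2, 3 and 4 by length in WENRC and 1, 4, 3 and 5 in ENRI.

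The fold over input of the regions over the clusters was lower in the ENRI library. Regions were called separately in each medium and differ in their ends, so the values of the media do not cover the same sequence. The authors' fold over input was 8.22 in WENRC and 5.10 in ENRI for Hoxa, 6.87 and 5.47 for the main Hoxb region, 7.64 and 5.04 for Hoxc, and 8.65 and 5.62 for Hoxd. Their ratios of ENRI to WENRC were 0.620, 0.796, 0.660 and 0.650, and the region over Hoxb13 had 5.91 and 4.70. Among the other WENRC broad regions of at least 10 kb, 314 of 481 had a broad region in ENRI, with a median ratio of 0.849 and a middle range of 0.729 to 0.959, and 26 of the 314 had a ratio as low as that of Hoxd. Choosing long regions from ENRI instead gave a median of 0.822 over 329 regions. So a lower fold in ENRI was common among long regions (257 of 314), and Hoxa, Hoxc and Hoxd lay below the middle range while Hoxb lay within it. Of the 27 WENRC regions of at least 50 kb outside the clusters, closer in length to the Hox regions, 20 had an ENRI region, with a median ratio of 0.856, a middle range of 0.800 to 0.979 and 1 region as low as Hoxd. Against these the Hoxb regions, at 0.796 and 0.795, lay just below the middle range too. Neither comparison was matched on fold. The median fold in WENRC was 5.65 over the 314 regions and 5.27 over the 20, below that of each Hox region. Regions outside the clusters with a WENRC fold of 8.52 to 8.84, near the 8.65 of Hoxd, lay on either side of its ratio. By rising fold their ratios were 0.677, 0.525, 0.730, 0.492, 0.652 and 0.559, and the 0.650 of Hoxd lay within that span. The ratios below the middle range are thus not shown to be particular to the Hox clusters. Whether the Hox ratios stand apart from regions of like fold was not tested. With 1 ChIP library per medium there is no replicate check, and the share of tags inside regions was 4.45% in WENRC and 3.44% in ENRI for broad regions but 6.99% and 8.55% for narrow ones.

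**Figure D4:**
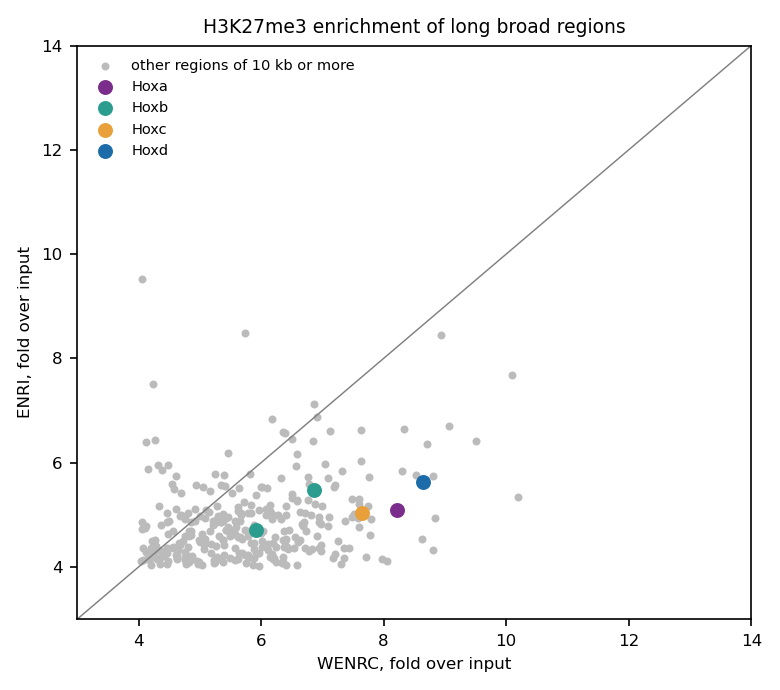
Each point is a broad H3K27me3 region of at least 10 kb in WENRC with an overlapping broad region in ENRI, with the authors' fold over input in WENRC on the x axis and in ENRI on the y axis; the line marks equal values. The 5 Hox regions (colours by cluster, 2 for Hoxb) all lie below the line, Hoxd at 8.65 and 5.62, as do 257 of the 314 other regions.

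The ends of the called regions differed little between the media at Hoxd and more elsewhere. The Hoxd region began 246 bp and ended 342 bp further along in ENRI than in WENRC, ending just past Hoxd1. At Hoxa the ends differed by 3067 and 17472 bp. Beyond that region each medium had another broad region. It ran from 131.83 to 169.16 kb past the low end of the cluster in WENRC and from 151.43 to 169.05 kb in ENRI. The calls thus divided this stretch differently in the media. The main Hoxb region began 16754 bp later in ENRI and ended 2506 bp further on. At Hoxc the ENRI region ran on for 80108 bp past the end of the WENRC region, to a length of 252 kb against 173 kb. In WENRC a separate broad region lay over most of that stretch, from 160.0 to 228 kb past the low end of the cluster, and ENRI had 1 region where WENRC had 2.

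**Figure D5:**
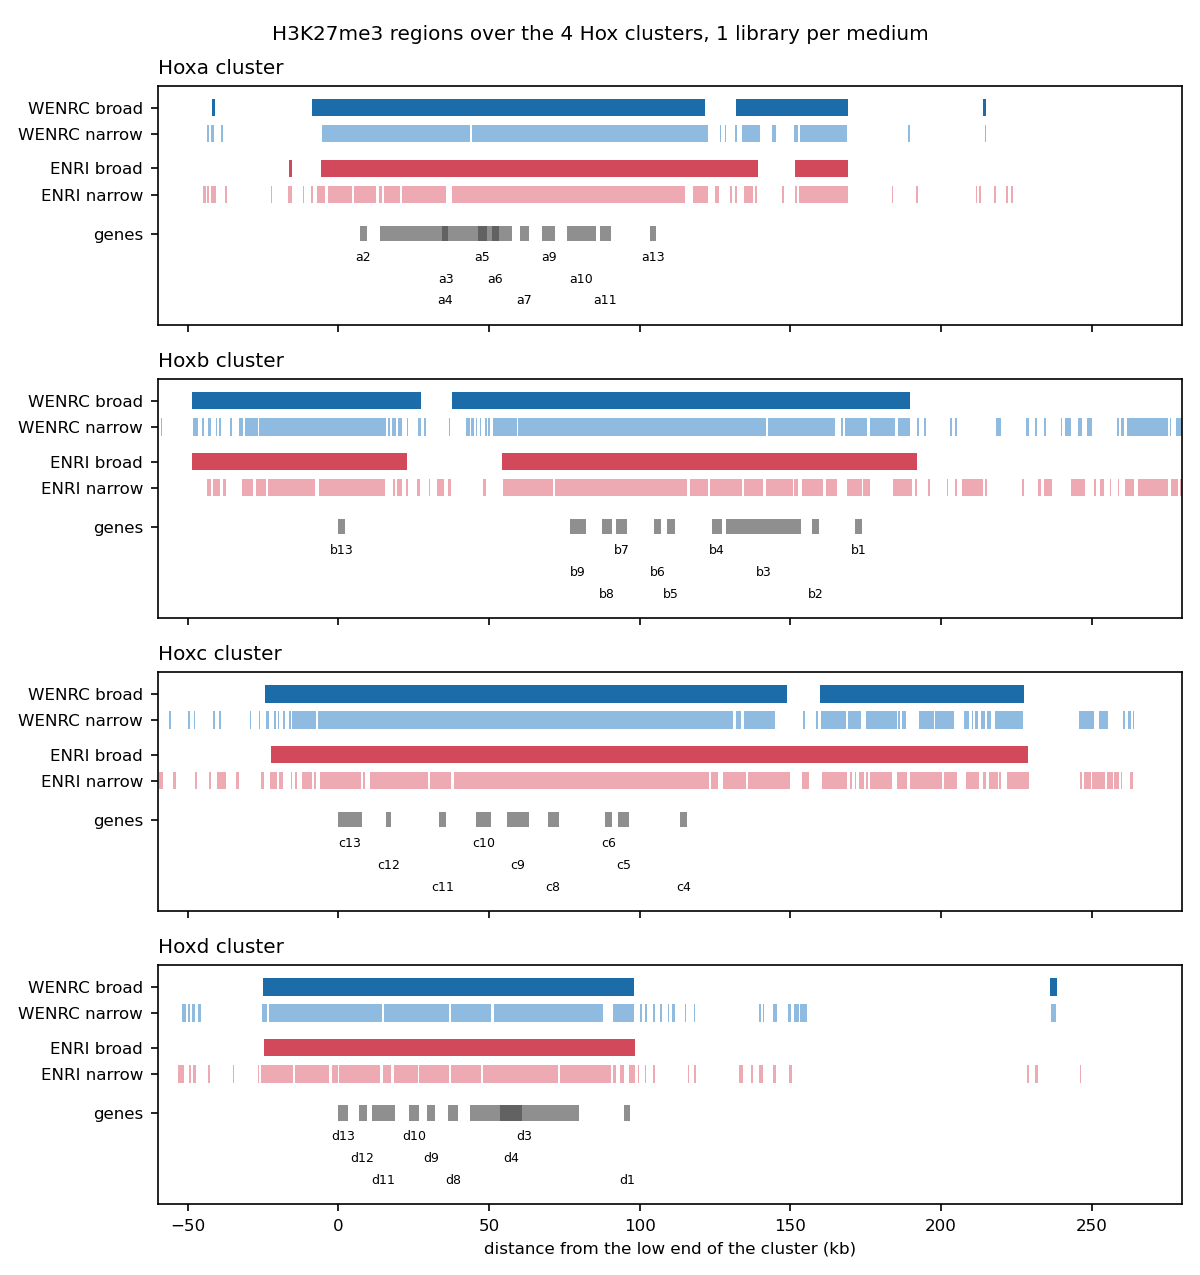
The x axis is the distance in kb from the low end of each cluster; bars show broad and narrow H3K27me3 regions in WENRC (blue) and ENRI (red), and grey bars the Hox transcripts, darker where they overlap, named by cluster letter and paralogue number. Broad regions cover Hoxa, Hoxc and Hoxd from end to end in both media, Hoxb has a gap between Hoxb13 and Hoxb9, and the narrow regions over Hoxa, Hoxc and Hoxd are in more pieces in ENRI.

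Narrow regions showed where within a cluster the mark was densest. In WENRC the narrow region over the starts of Hoxd8, Hoxd9 and Hoxd10 had 10.3-fold over input and 42.3 tags per kb, on the authors' scale that sets both libraries to the same tag total. The region over the starts of Hoxa3 and of Hoxa5 to Hoxa13 had 8.97-fold and 41.7 tags per kb. The lowest value at a start in WENRC was that of Hoxb1, with 22.3 tags per kb and 5.14-fold. The 82.4 kb region over the starts of Hoxb3 to Hoxb9, which include all tested Hoxb genes, had 33.7 tags per kb and 8.77-fold, and the 138 kb region over the Hoxc genes 35.2 and 8.54-fold. These 2 densities were close, although the genes differed widely in transcription. In ENRI the highest value at a start was 28.8 tags per kb, at Hoxd10. The 4 genes that differed by batch lay in regions of 41.7 (Hoxa9 and Hoxa10), 34.0 (Hoxd3) and 35.1 tags per kb (Hoxd4) in WENRC, and the labels do not tie the ChIP libraries to a batch.

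Promoter sequences are printed for 1 gene of each cluster, chosen for its pattern: Hoxb4 was transcribed in all libraries, Hoxa9 and Hoxd4 mainly in batch 1, and Hoxc4 was near 0. They run from 250 bases before to 50 bases after the start (RefSeq, build GRCm38.p6, read 5′ to 3′ on the gene's strand), with CpG dinucleotides in capitals, since CpG-rich stretches are known sites of Polycomb recruitment in mammals. Their positions in that build are chr11:96318017-96318316 (plus strand), chr6:52227321-52227620 (minus), chr2:74721728-74722027 (plus) and chr15:103034145-103034444 (plus).
Hoxb4: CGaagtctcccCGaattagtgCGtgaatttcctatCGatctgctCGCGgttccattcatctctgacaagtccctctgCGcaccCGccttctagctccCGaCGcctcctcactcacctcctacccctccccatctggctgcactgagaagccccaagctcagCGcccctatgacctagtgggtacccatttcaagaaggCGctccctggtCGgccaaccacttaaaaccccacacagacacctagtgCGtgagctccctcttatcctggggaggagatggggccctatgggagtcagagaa
Hoxa9: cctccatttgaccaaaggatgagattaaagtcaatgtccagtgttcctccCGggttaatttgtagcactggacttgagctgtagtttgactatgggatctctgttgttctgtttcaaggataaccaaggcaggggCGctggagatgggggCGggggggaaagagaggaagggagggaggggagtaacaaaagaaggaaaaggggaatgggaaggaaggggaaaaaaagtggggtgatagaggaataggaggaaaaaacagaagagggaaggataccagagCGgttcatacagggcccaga
Hoxd4: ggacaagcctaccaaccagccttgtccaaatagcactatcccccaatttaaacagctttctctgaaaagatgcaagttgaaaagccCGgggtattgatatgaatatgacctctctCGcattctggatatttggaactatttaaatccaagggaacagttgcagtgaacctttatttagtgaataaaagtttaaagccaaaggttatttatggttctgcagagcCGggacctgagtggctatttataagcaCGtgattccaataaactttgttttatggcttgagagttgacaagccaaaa
Hoxc4: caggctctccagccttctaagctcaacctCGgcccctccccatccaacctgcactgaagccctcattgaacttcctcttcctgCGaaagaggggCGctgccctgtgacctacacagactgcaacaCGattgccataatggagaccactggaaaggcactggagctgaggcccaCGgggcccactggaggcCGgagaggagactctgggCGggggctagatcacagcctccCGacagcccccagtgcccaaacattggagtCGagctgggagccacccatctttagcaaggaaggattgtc

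The table of promoters matched 22 of the 39 Hox genes with 24 promoters. Of these, 10 lay in Hoxa, 10 in Hoxd, 3 in Hoxb and 1 in Hoxc, and Hoxb9 was not among them. Values over the 24 thus mainly describe Hoxa and Hoxd. The 24 promoters held a median of 14.5 CpG per 300 bases against 7 over 32841 promoters of all genes, with a ratio of observed to expected CpG of 0.626 against 0.384. The range was wide. Hoxa9 and Hoxd4, both far higher in batch 1, had 4 CpG each, Hoxc4 had 9, Hoxb4 14 and Hoxa13 45. Hoxd3, which shared the batch pattern of Hoxd4, had 20, and the 2 Hoxa10 promoters 21 and 12, so the 4 genes did not share a CpG count. The letters TTTATG, a core recognised by caudal-type homeodomains such as that of Cdx2, were found on either strand in 5 of the 24 Hox promoters (Hoxa7, Hoxb8, Hoxd3, Hoxd4 and 1 of the 2 of Hoxd11), which is 20.8% against 11.9% of all promoters. This is a match of letters and not a measured site.

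Some noncoding genes of the Hoxa and Hoxd clusters were also higher in batch 1. Hoxd3os1, on the strand opposite to Hoxd3, had 1.09, 1.08, 0.107 and 0.0520 RPKM in the 4 libraries. Hoxaas3, opposite Hoxa3, Hoxa5 and Hoxa6, had 0.596 and 0.380 RPKM in batch 1 and 0.0520 and 0.102 in batch 2, and Hoxa11os had 51 and 25 reads in batch 1 against 1 and 0. Mira, another noncoding gene of the Hoxa cluster, did not share this order, with 0.291, 0.173, 0.543 and 0 RPKM from 6, 4, 4 and 0 reads. Without a stated strand setting, reads of these transcripts and of the Hox genes opposite them cannot be told apart. In the Hoxb cluster Gm53 had 0.329 and 0.573 RPKM in WENRC and 0.150 and 0.153 in ENRI, so both ENRI libraries lay below both WENRC libraries, as in Hoxb9, the nearest Hox gene. Hotair, the long noncoding RNA of the Hoxc cluster, had 1 read in WENRC of batch 2 and 0 in the others. Haglr, between Hoxd3 and Hoxd1, had 20 and 51 reads in batch 1 and 1 and 3 in batch 2.

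The clusters also hold 6 microRNA genes of 3 families, whose mature forms are printed to show that a seed is shared between clusters. Sequences are from RefSeq (GRCm38.p6), 5′ to 3′, with the seed, bases 2 to 8, in capitals. The miR-10 pair lies in the Hoxb and Hoxd clusters and shares 1 seed, with a single substitution, U12A from miR-10a to miR-10b, counted from 1 at the 5′ end. The miR-196 family lies in Hoxa, Hoxb and Hoxc and shares another, with A12C from miR-196a to miR-196b, and miR-615 lies inside Hoxc5.
miR-10a-5p: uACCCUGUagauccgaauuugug
miR-10b-5p: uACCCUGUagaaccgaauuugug
miR-196a-5p: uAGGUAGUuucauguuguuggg
miR-196b-5p: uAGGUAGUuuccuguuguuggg
miR-615-3p: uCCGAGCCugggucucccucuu

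Their hairpin genes had at most 5 reads in a library. Mir10b, inside Hoxd4 and Hoxd3, had 3 and 3 reads in batch 1 and 0 in both libraries of batch 2. Mir196a-1, between Gm53 and Hoxb9, had 5, 0, 1 and 0 reads in the 4 libraries. These counts are at or near the floor of 3 reads.

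Genes beside the clusters included genes near 0 reads with a marked promoter and transcribed genes without one. Evx2, a homeobox gene 8.89 kb from Hoxd13, had 0 reads in all libraries and a marked promoter in both media, and Evx1, 52.6 kb beyond Hoxa13, had a marked promoter and at most 0.0259 RPKM. The next genes beyond Hoxa and Hoxd had unmarked promoters in both media and were transcribed, Mtx2 beyond Hoxd1 at 1.04, 0.854, 0.996 and 0.561 RPKM, Lnp beyond Evx2 at 0.662, 0.383, 0.616 and 0.303, and Hibadh beyond Evx1 at 0.943, 0.930, 0.911 and 1.01. Skap1 and Ttll6, the nearest coding genes on either side of Hoxb, had unmarked promoters and at most 0.228 RPKM. Beside Hoxc, Smug1 and Cbx5 on one side and Calcoco1 on the other had unmarked promoters, at 1.08, 0.749, 0.812 and 0.729 RPKM for Smug1, 1.88, 1.12, 1.64 and 0.652 for Cbx5 and 0.286, 0.653, 0.288 and 0.568 for Calcoco1. Atp5g2, beyond Calcoco1, had 3.51, 2.10, 3.01 and 1.29 RPKM and a promoter marked in ENRI only. None of these neighbours was 4-fold higher in batch 1, the rule that Hoxd3 and Hoxd4 met.

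Cofactors and upstream regulators of Hox genes gave no gene past the threshold in limma, and neither did the stem cell and enterocyte markers. TALE homeodomain proteins, some of which bind DNA beside Hox proteins, had 7 of 11 members tested. In ENRI 6 of them were lower and 1 higher, and the median log2 difference was −0.45, where 65.7% of all genes tested were lower (51.8% with TMM scaling) and their median was −0.21. Tgif2 had 2.47 and 2.52 RPKM in WENRC and 0.900 and 0.879 in ENRI (−1.11 ± 0.12, adjusted p = 0.056), and the authors' deposited table gave it an FDR of 0.0387. Meis2, a partner of Hox proteins, had 0.945 and 0.753 RPKM in WENRC and 1.17 and 1.44 in ENRI, a difference of 0.42 ± 0.15, and Pbx2 had 1.33 and 1.24 against 0.938 and 0.767 (−0.40 ± 0.13). Of 8 caudal-type and ParaHox genes 3 were tested, and Cdx2, which patterns the intestine, had 7.52 and 8.26 RPKM in WENRC and 4.96 and 6.02 in ENRI (−0.49 ± 0.21).

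All 18 Polycomb and trithorax genes in the table were tested, with 13 lower in ENRI, 5 higher and a median of −0.35, beside the same 65.7% and −0.21 over all genes tested. Jarid2, a subunit of some PRC2 complexes, had 2.85 and 4.43 RPKM in WENRC and 1.78 and 1.98 in ENRI (−0.77 ± 0.24), and Cbx7, which binds H3K27me3, 3.40 and 2.69 against 2.04 and 1.06 (−0.83 ± 0.29). Kdm6b, which removes the mark, had 5.48 and 6.29 against 5.76 and 8.96. Ezh2, the catalytic subunit of PRC2, was singled out after its values were seen, and had 1.71 and 1.85 RPKM in WENRC and 1.04 and 0.651 in ENRI (−0.77 ± 0.18, limma adjusted p = 0.0676). Of 12 retinoic acid pathway genes, whose signal is known to induce Hox genes in embryos, 5 were tested, 2 lower and 3 higher. Aldh1a1, an enzyme that makes retinoic acid, had 0.241 and 0.289 RPKM in WENRC and 5.40 and 12.7 in ENRI (3.53 ± 0.42, limma adjusted p = 0.056), and Rxra, a receptor subunit, 0.725 and 0.659 against 1.35 and 1.85. The authors' deposited table gave both an FDR under 0.05, at 5.83e-20 for Aldh1a1 and 0.00817 for Rxra.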

How the data were processed

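The members and the gene lists were chosen with earlier results of these data known. Per the file headers, the authors counted GRO-seq reads over RefSeq transcripts of mm9 with HOMER (version 4.3 per the submitters' processing notes, which also name FastQC and Bowtie) and deposited a signal per transcript, with each library scaled to the same total, beside log2 fold changes, p-values and FDR from edgeR with batch in the model. Whether counting used strand, and the coordinate base, are not given in the sources used here. The deposited signal steps gave whole reads (within 0.1) for 100% of low values in each library, so reads were recovered and RPKM computed from them; the 4 columns of the authors' own RPKM were not used here.

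The longest transcript stood for each symbol. The filter on low values, a minimum of 0.5 RPKM in 2 or more libraries, left 11602 genes, which limma 3.58.1 compared on log2(RPKM + 0.5), a scale that understates changes of low genes, with medium as the only term and Benjamini-Hochberg adjustment. The count test on recovered reads, edgeR 4.0.16 quasi-likelihood, called 979 genes, and DESeq2 1.42.0 was also run. The limma fit alone was tried on simulated reads, which held no batch difference and so do not show how it behaves on these libraries. Intervals on reads are exact and cover counting error only, since the libraries carry no molecular identifiers.

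Sample titles number mouse 1 and 2 in both media, and the table's columns carry only a batch, so the batch served as the replicate block. The pairing comes from the titles. The differences between the batches correlated at r = 0.0127 between the media over 11602 genes, while genes of chromosome Y and Xist split by batch in both media.

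Per the file headers, the authors called H3K27me3 regions with HOMER in 1 ChIP library per medium against input DNA, and deposited for each region a tag signal, a score, a fold over input and a p-value. Broad regions came from wider windows with a longer joining distance than narrow ones. Regions were used as deposited, and a promoter was 2 kb either side of the start. The mm9 positions are as deposited, and promoter and microRNA sequences are from RefSeq tables of GRCm38.p6. Named were the Hox genes passing the filter, genes overlapping or next to the clusters, and up to 4 genes of each list by mean RPKM. The values of 1 Hox gene are not reported here, although it is included in the counts. The H3 ChIP samples were not analysed here. R 4.3.3 and Python 3.11.15 were used.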

Additional observations from a re-analysis of the deposited data

How the results depend on the processing

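The alternatives changed the number of genes past the test far more than the direction of the Hoxb genes. In place of 17 genes, limma called 1 with a pseudocount of 0.1 RPKM, 0 with no filter, 1491 with a filter of 10 reads in 2 libraries, 0 with TMM scaling, 912 with quantile normalization and 0 with the replicate block. By count models the number was 979 in edgeR's quasi-likelihood fit, 920 once the replicate block was added, and 2736 in DESeq2. Leaving out 1 library gave 0 to 5792, with 5792 without ENRI of batch 1, 672 without ENRI of batch 2 and 0 without either WENRC library. In place of 0 Hox genes, 1 passed with the filter of 10 reads, 1 in edgeR and 1 in DESeq2, each time Hoxb9, and 0 to 4 passed when 1 library was left out. The 4, without ENRI of batch 1, were Hoxb3, Hoxb6, Hoxb7 and Hoxb9, and without ENRI of batch 2 Hoxb9 passed. The replicate block left the Hox count at 0. The cause of these differences was not tested, except that fits without 1 library treat the lone sample as varying like the other medium.

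The median log2 change of the tested Hox genes, −0.40, became −0.56 with a pseudocount of 0.1 RPKM, −0.05 with no filter (39 genes), −0.18 with the filter of 10 reads (21 genes), −0.23 with TMM, −0.18 with quantile normalization and −0.26 with median centring, and ranged from −0.75 to −0.10 when 1 library was left out. The first 3 change the scale or the genes, and the cause of the others was not tested.

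The 22 reversals were all in the 4 genes that differ by batch. Hoxa9 gave 0.00 with TMM, 0.12 with quantile normalization, 0.09 with median centring, 0.00 in edgeR with the replicate block and 0.02 in DESeq2. Hoxd3 gave 0.07, 0.21, 0.13 and 0.12 in the first 4 of these, 0.18 in edgeR and 0.21 in DESeq2. Hoxd4 gave 0.11 with quantile normalization and 0.02 with median centring. Hoxa10 gave −0.08 with the shortest transcript. When 1 library was left out, Hoxa9 ranged from −0.73 to 0.61, Hoxd3 from −0.74 to 0.70, Hoxd4 from −0.90 to 0.64 and Hoxa10 from −0.61 to 0.74. With 1 library left out, the 2 media no longer hold the same batches, and the cause was not otherwise tested. The SE of each was 0.63 or more in the main fit. With the replicate block it was 0.18 for Hoxa9 and 0.17 for the others.

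With regions of at least 8-fold over input, 20 Hox promoters were marked in WENRC and 0 in ENRI, and coverage fell to 0 for Hoxb and Hoxc in WENRC and to 0 for each cluster in ENRI, since those broad regions lie under 8-fold. Narrow regions covered 99.3% of Hoxa, 83.2% of Hoxb and 94.5% of Hoxd in WENRC, and 95.3%, 77%, 96.8% and 91.4% of Hoxa, Hoxb, Hoxc and Hoxd in ENRI, being built from smaller windows. With the filter of 10 reads, chosen after seeing the data, 20 genes were 4-fold higher in batch 1 in both media in place of 13, as more genes were tested. Depth limits the Hox genes outside Hoxb most, since many had under 10 reads in batch 2.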
